A study of Mus musculus with 16 samples.

Results

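The genes described here are 38 genes of mitochondrial and peroxisomal fatty acid oxidation, taken by name from a table of 54532 genes. They were measured by RNA sequencing in 16 libraries of mouse hepatocytes, the main metabolic cells of the liver. The study asks how hepatocytes and pancreatic cancer cells that reach the liver affect each other, with serine supply as its theme. Hepatocytes were grown with Phgdh knockout cancer cells and a CXCR2 inhibitor (n = 4), with Phgdh wild-type cancer cells and the inhibitor (n = 3), with knockout cells and no inhibitor (n = 3), with wild-type cells and no inhibitor (n = 3), or alone (n = 3). Phgdh is the gene of phosphoglycerate dehydrogenase, which starts serine synthesis, and the knockout lies in the cancer cells, not in the hepatocytes. CXCR2 is a chemokine receptor best known from neutrophils.

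All 5 groups share the same hepatocytes, which the labels call a cell line without naming strain, age or sex. The labels give no dose, vehicle, duration or culture format, and hepatocytes alone with the inhibitor were not analysed here. The design text of the series names the cancer cells (HY19636) as the material sequenced, which contradicts the sample labels, and the groups below follow the labels. Whether the libraries of a group are separate cultures is not stated, so the p-values describe the spread between libraries only. FPKM, the unit of the deposited table, are fragments scaled by gene length and by library size. Averaged over all 16 libraries, 14 of 18 hepatocyte markers reached 1 FPKM, while Apoa2, Apoc3, Cyp2e1 and Asgr1 were under 1 FPKM. Cps1, Tat and Cyp3a11 reached it through the inhibitor groups alone. These averaged at most 0.409 FPKM in each group without inhibitor, against at least 2.27 FPKM in both groups with it. Ductal and cancer epithelial markers were also read, with 8 of 16 at 1 FPKM or more and Tff1 and Agr2 at 0 in every library. Stellate and endothelial markers summed to at most 0.351 FPKM in any library.

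Fatty acids are oxidised in steps. An acyl-CoA synthetase joins the fatty acid to coenzyme A, the carnitine shuttle carries long chains into mitochondria, and each turn of the spiral there (dehydrogenase, hydratase, second dehydrogenase, thiolase) cuts off acetyl-CoA and passes electrons to the respiratory chain. Peroxisomes run a parallel spiral on very long and branched chains. In liver many of these genes are targets of the nuclear receptor PPAR-alpha, and the acetyl-CoA feeds ketone body synthesis in fasting.

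RefSeq promoters (GRCm38.p6, 250 bases before to 50 bases after the gene's start) were found for 33 of the 38 genes, all but Acaa2, Cpt1b, Decr1, Acad9 and Crat. Those of 6 genes are printed because the results turn on them. Cpt1a (chr19:3323051-3323350, plus strand) and Acadl (chr1:66863260-66863559, minus strand) changed strongly in all 4 comparisons of inhibitor with no inhibitor and of co-culture with hepatocytes alone. The gene pairs Acot1 (chr12:84009252-84009551, plus strand) and Acot2 (chr12:83987611-83987910, plus strand), and Acaa1a (chr9:119341044-119341343, plus strand) and Acaa1b (chr9:119157044-119157343, minus strand), encode related enzymes with unlike responses. Each sequence runs 5′ to 3′ on the gene's strand. Capitals mark the nuclear receptor half-site AGGTCA or its reverse complement TGACCT, and the CCAAT box or its reverse complement ATTGG.
Cpt1a: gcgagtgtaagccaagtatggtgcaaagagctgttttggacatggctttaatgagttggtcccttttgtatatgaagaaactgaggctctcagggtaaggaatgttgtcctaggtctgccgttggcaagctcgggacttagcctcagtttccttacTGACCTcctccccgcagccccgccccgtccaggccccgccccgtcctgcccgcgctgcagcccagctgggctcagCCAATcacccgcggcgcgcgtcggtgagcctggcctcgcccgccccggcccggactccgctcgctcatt
Acadl: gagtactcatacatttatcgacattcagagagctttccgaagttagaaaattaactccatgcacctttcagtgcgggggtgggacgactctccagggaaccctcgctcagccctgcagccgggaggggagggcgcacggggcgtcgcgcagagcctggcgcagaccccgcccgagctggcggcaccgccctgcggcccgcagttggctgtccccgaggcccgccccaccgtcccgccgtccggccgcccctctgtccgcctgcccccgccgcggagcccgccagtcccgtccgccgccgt
Acot1: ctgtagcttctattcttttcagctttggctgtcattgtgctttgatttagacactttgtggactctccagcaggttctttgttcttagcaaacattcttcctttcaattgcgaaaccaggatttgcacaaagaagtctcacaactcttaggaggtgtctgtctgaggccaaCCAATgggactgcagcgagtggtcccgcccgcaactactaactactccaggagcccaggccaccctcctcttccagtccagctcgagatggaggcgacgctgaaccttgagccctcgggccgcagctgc
Acot2: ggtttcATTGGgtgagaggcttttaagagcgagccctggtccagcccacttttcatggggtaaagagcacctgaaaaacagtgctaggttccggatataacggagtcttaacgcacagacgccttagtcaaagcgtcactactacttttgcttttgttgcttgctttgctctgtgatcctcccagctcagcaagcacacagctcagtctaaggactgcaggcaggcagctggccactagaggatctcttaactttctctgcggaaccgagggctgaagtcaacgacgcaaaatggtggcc
Acaa1a: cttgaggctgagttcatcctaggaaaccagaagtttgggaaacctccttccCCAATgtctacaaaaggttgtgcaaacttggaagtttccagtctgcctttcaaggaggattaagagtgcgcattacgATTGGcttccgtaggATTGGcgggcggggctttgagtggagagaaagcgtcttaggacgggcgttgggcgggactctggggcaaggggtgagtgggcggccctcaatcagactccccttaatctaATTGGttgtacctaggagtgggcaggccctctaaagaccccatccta
Acaa1b: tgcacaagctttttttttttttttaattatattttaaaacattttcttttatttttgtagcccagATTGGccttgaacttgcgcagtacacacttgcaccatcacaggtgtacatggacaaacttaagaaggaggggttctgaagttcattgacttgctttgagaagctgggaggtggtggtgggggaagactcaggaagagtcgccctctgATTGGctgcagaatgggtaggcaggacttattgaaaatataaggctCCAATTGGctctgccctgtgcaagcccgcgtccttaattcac

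The Cpt1a window held TGACCT starting 94 bases before the start and CCAAT 19 bases before it, and the Acadl window held no letters of either motif. Acot1 and Acot2 had a single CCAAT or ATTGG each, at 79 and 244 bases before the start. Both thiolase genes, Acaa1a and Acaa1b, had 4 each, and in Acaa1b CCAAT and ATTGG overlap as CCAATTGG. Over all 33 windows, searched on both strands, AGGTCA was found in 4 (Acadm, Acadvl, Cpt1a and Echs1), against 16.3% of 32851 promoters of the same length. CCAAT was found in 17 of the 33, against 37.4% of all promoters. A direct repeat of 2 copies of AGGTCA with 1 base between them, the form that PPAR-alpha with RXR is known to bind, was in none of the 33 and in 0.0396% of all promoters. TGATGNAAN, the form of element known for ATF4 and CHOP, was in 1 (Echs1) and in 3.95% of all promoters. These are matches of letters in a short window, not sites of binding.

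FPKM in the deposited table are per deposited gene length. For the 36 genes tested below, that length was 0.96 to 5.32 times (median 1.31) the longest protein-coding GENCODE M21 transcript of the same gene, with Echs1 at 5.32 and 11 genes at 2 or more, so levels of different genes are given without an order. Averaged over the 16 libraries, Acsl5 was at 92.5 FPKM, Acadl at 83.6, Cpt1a at 62.8, Acsl4 at 54.5 and Acaa2 at 52.4 FPKM, all with ratios of at most 1.15. Acsl1, the synthetase that dominates in normal liver, averaged 2.24 FPKM (ratio 2.69), and Ehhadh, with 2981 bases by both lengths, averaged 3.19 FPKM. Genes averaging under 1 FPKM were not tested, which left out Cpt1b, the muscle form of carnitine palmitoyltransferase 1, and Bdh1, a ketone body enzyme. Cpt1b had 0 to 12 fragments per library and Bdh1 had 8 to 110.

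With the CXCR2 inhibitor, most of the fatty acid oxidation genes were higher than in the matching co-culture without it, for both cancer cell genotypes. In the knockout co-culture 24 of the 36 tested genes rose and 5 fell, and in the wild-type co-culture 24 rose and 5 fell. The largest rises were in Cpt1a, the entry gate of the mitochondrial pathway, in the dehydrogenase Acadl, in the thiolase Acaa2, in the peroxisomal carnitine enzyme Crot and the peroxisomal bifunctional enzyme Ehhadh, and in Acsl1. The clearest fall was in the mitochondrial thioesterase Acot2.

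Calls here and below are limma moderated tests on log2(FPKM + 1) over 11395 genes, with a Benjamini-Hochberg adjusted p under 0.05, and ± gives the SD beside a mean FPKM and the SE beside a log2 fold change. Of all genes tested, 34.8% rose and 34.7% fell with the inhibitor in the knockout co-culture (69.5% either way), and 33.5% rose and 33% fell in the wild-type co-culture (66.6% either way). The count of genes changed was thus not far from that of the whole table, while their balance leaned to higher values. The median log2 fold change of the 36 genes was 0.33 in the knockout and 0.24 in the wild-type co-culture, against -0.01 over all genes in both. The 2 inhibitor comparisons share no library. They had 22 of the 24 higher genes in common (91.7% of each list) and all 5 of the lower ones, and no gene rose in one and fell in the other. The same agreement was not counted over all genes. Only 0.816% of all genes had inhibitor effects that differed past the threshold, so this agreement is not shown to be particular to these genes. Acox3 and Eci1 passed in the wild-type co-culture alone, and Cpt2 and Decr2 in the knockout co-culture alone, with no difference between the effects past the threshold for any of them.

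Several measures of the libraries moved with the inhibitor. The summed FPKM of the 18 hepatocyte markers was 1118 to 1181 with knockout cells and inhibitor and 865 to 885 with wild-type cells and inhibitor. Without inhibitor it was 157 to 161 with knockout cells, 134 to 139 with wild-type cells and 267 to 272 in hepatocytes alone. With inhibitor, Alb (461 knockout, 335 wild type) and Ttr (258 and 195) made up most of it. Not all markers rose so far. Apob averaged 44.5 FPKM with knockout cells and inhibitor and 42.1 FPKM with wild-type cells and inhibitor. Without inhibitor Apob averaged 24.8 FPKM with knockout cells, 21.7 FPKM with wild-type cells and 47.8 FPKM in hepatocytes alone. Asgr1 stayed at or under 0.232 FPKM in every library. The summed level of 16 ductal and cancer epithelial markers was 1423 to 1531 FPKM with knockout cells and inhibitor and 1467 to 1624 FPKM with wild-type cells and inhibitor, against 1146 to 1230 with knockout cells, 1069 to 1236 with wild-type cells, and 2401 to 2507 FPKM in hepatocytes alone. Members of that list went apart. Krt19 averaged 195 FPKM with knockout cells and inhibitor and 193 FPKM with wild-type cells and inhibitor, against 23.5 with knockout cells, 22.0 with wild-type cells and 96.9 FPKM in hepatocytes alone. Krt7 averaged 7.63 FPKM with knockout cells and inhibitor and 7.86 FPKM with wild-type cells and inhibitor, against 0.551 with knockout cells, 0.580 with wild-type cells and 4.26 FPKM in hepatocytes alone. Spp1 averaged 261 FPKM with knockout cells and inhibitor and 258 FPKM with wild-type cells and inhibitor, against 319 with knockout cells, 315 with wild-type cells and 1016 FPKM in hepatocytes alone. Kupffer cell and leukocyte markers, 2 of 10 at 1 FPKM or more (Cd14 and Cd68) and the defining Adgre1 and Clec4f at 0, summed to 107 to 109.5 FPKM with knockout cells and inhibitor and 103 to 104 FPKM with wild-type cells and inhibitor. Without inhibitor that sum was 45.0 to 46.8 FPKM with knockout cells, 44.6 to 49.9 FPKM with wild-type cells and 114 to 117 FPKM in hepatocytes alone. Mitochondrially encoded transcripts took 1.88% to 2.09% of fragments with knockout cells and inhibitor and 1.86% to 2.11% with wild-type cells and inhibitor, against 3.25% to 3.80% with knockout cells, 3.49% to 4.57% with wild-type cells and 3.41% to 3.79% in hepatocytes alone. Their part in the results was not tested. In such bulk libraries fewer cells of a type and less RNA per cell cannot be told apart.

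**Figure D1:**
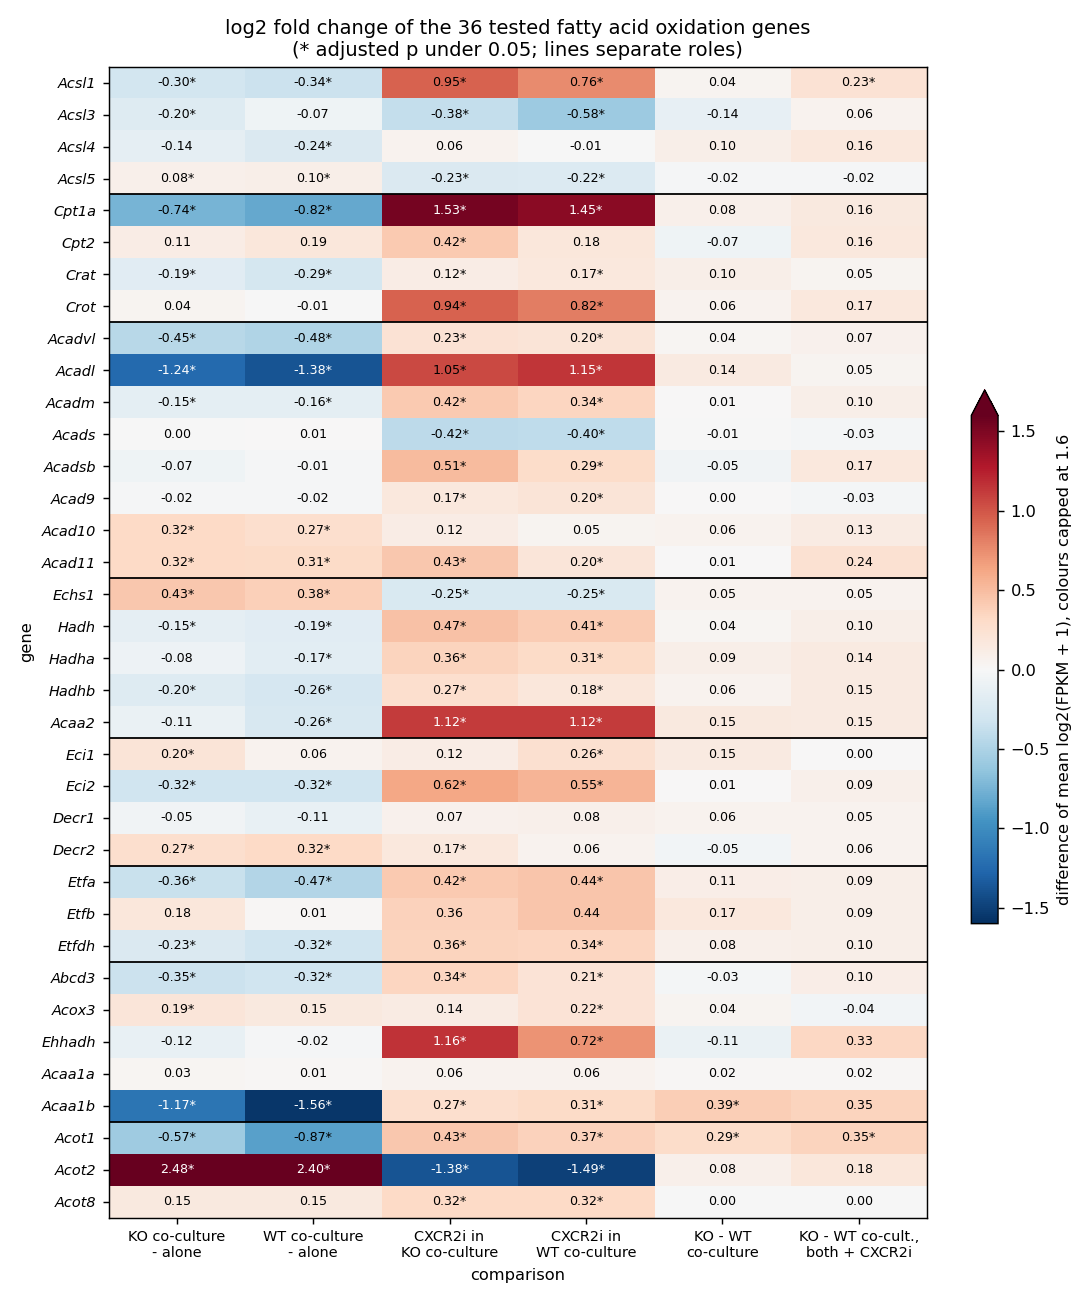
Heat map of log2 fold changes (difference of mean log2(FPKM + 1)) for the 36 tested genes, in rows by role, over 6 comparisons in columns, with an asterisk where the adjusted p is under 0.05. The inhibitor columns are mostly red, with Cpt1a at 1.53 with knockout and 1.45 with wild-type cells, while Acot2 is at -1.38 and -1.49 there and at 2.48 and 2.40 in the co-culture columns.

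Activation of fatty acids depends on the long-chain acyl-CoA synthetases, of which 1 of 4 rose and 2 fell with the inhibitor in either co-culture. Of all genes tested, 34.8% rose and 34.7% fell with knockout cells, and 33.5% and 33% with wild-type cells. For so few genes the synthetase count was not far from those shares. Acsl1 (ENSMUSG00000018796, chromosome 8, 46471037 to 46536051, GRCm38, as for all gene positions here) had 3.59, 3.74, 3.25 and 3.43 FPKM with knockout cells and the inhibitor, and 2.99, 2.70 and 2.79 FPKM with wild-type cells and the inhibitor. It had 1.29, 1.41 and 1.30 FPKM with knockout cells, 1.37, 1.14 and 1.28 FPKM with wild-type cells, and 1.79, 1.84 and 1.98 FPKM in hepatocytes alone. The libraries with the inhibitor all lay above every other library, and those of both co-cultures without it lay below hepatocytes alone. Acsl1 rose with the inhibitor by 0.95 ± 0.06 (log2 fold change, adjusted p = 1.68e-09) with knockout cells and by 0.76 ± 0.06 (adjusted p = 5.24e-08) with wild-type cells. Against hepatocytes alone it fell in the knockout co-culture (-0.30 ± 0.06, adjusted p = 6.93e-04) and in the wild-type co-culture (-0.34 ± 0.06, adjusted p = 2.08e-04).

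Acsl3 (ENSMUSG00000032883, chromosome 1, 78657825 to 78707743), a synthetase of lipid droplets and the endoplasmic reticulum, had 18.7, 18.2, 18.9 and 20.1 FPKM with knockout cells and the inhibitor, and 18.3, 17.1 and 19.03 FPKM with wild-type cells and the inhibitor. Acsl3 had 26.2, 22.9 and 26.1 FPKM with knockout cells, 29.05, 26.6 and 27.2 FPKM with wild-type cells, and 28.2, 29.96 and 28.7 FPKM in hepatocytes alone. Every library with the inhibitor was below every library without it. The fall was -0.38 ± 0.05 with knockout cells (adjusted p = 1.81e-05) and -0.58 ± 0.06 with wild-type cells (adjusted p = 5.10e-07). Acsl5 (ENSMUSG00000024981, chromosome 19, 55251938 to 55297720) had 82.9, 84.5, 86.1 and 85.5 FPKM with knockout cells and the inhibitor, and 85.03, 87.7 and 85.7 FPKM with wild-type cells and the inhibitor. Acsl5 had 99.9, 99.8 and 99.01 FPKM with knockout cells, 100.4, 100.3 and 101 FPKM with wild-type cells, and 93.4, 94.3 and 94.8 FPKM in hepatocytes alone. The groups with the inhibitor did not overlap those without it, although the change was small, at -0.23 ± 0.03 with knockout cells (adjusted p = 1.22e-06) and -0.22 ± 0.03 with wild-type cells (adjusted p = 3.86e-06). Acsl4, which prefers arachidonic acid, averaged 56.5 FPKM with knockout cells and inhibitor and 50.3 FPKM with wild-type cells and inhibitor, against 54.2 FPKM with knockout cells and 50.8 FPKM with wild-type cells, and passed no test between inhibitor and no inhibitor. The Acsl5 gene overlaps Zdhhc6 on the other strand, at 17.8 FPKM. Zdhhc6 itself changed with the inhibitor by -0.53 with knockout and -0.57 with wild-type cells. Whether strand was used in counting is not given in the sources used here, and a share of Zdhhc6 reads in Acsl5 was not tested.

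Entry into mitochondria runs through the carnitine shuttle, where Cpt1a moves the acyl group to carnitine at the outer membrane and is the step held in check by malonyl-CoA. Cpt1a (ENSMUSG00000024900, chromosome 19, 3323301 to 3385732) had 97.8, 99.7, 93.5 and 96.5 FPKM with knockout cells and the inhibitor, and 86.4, 85.98 and 87.01 FPKM with wild-type cells and the inhibitor. Cpt1a had 32.8, 30.95 and 34.7 FPKM with knockout cells, 32.5, 30.9 and 29.7 FPKM with wild-type cells, and 54.9, 55.5 and 56.5 FPKM in hepatocytes alone. The 5 groups formed 3 separate bands, with both inhibitor groups on top, hepatocytes alone in the middle and both co-cultures without inhibitor at the bottom. Cpt1a rose with the inhibitor by 1.53 ± 0.04 with knockout cells (adjusted p = 1.65e-13) and by 1.45 ± 0.04 with wild-type cells (adjusted p = 7.02e-13), the largest rise of the 36 genes in both. Against hepatocytes alone its log2 fold change was -0.74 ± 0.04 in the knockout co-culture (adjusted p = 1.24e-09) and -0.82 ± 0.04 in the wild-type co-culture (adjusted p = 4.00e-10).

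The other acyltransferases of the shuttle moved less. Crot (ENSMUSG00000003623, chromosome 5, 8966033 to 8997324), which makes carnitine esters of medium chains in peroxisomes, had 33.5, 31.4, 31.6 and 35.04 FPKM with knockout cells and the inhibitor, and 30.1, 27.9 and 29.1 FPKM with wild-type cells and the inhibitor. Crot had 17.3, 15.7 and 17.01 FPKM with knockout cells, 18.2, 14.6 and 15.2 FPKM with wild-type cells, and 15.3, 16.3 and 16.7 FPKM in hepatocytes alone. Every library with the inhibitor lay above every library without it, and the co-cultures without it overlapped hepatocytes alone. The rise was 0.94 ± 0.07 (adjusted p = 9.12e-09) with knockout cells and 0.82 ± 0.07 (adjusted p = 9.96e-08) with wild-type cells. Crot overlaps the pseudogene Gm15610 on the other strand, read at 9.41 FPKM on average, which itself changed by 0.10 with knockout and 0.94 with wild-type cells. Cpt2, the inner membrane partner of Cpt1a, averaged 16.3 ± 1.09 FPKM with knockout cells and inhibitor, against 11.96 ± 1.13 FPKM with knockout cells and no inhibitor (0.42 ± 0.08, adjusted p = 4.55e-04). With wild-type cells Cpt2 was 14.4 ± 1.02 FPKM with and 12.7 ± 1.69 FPKM without the inhibitor, which did not pass (adjusted p = 0.085). Crat, which handles short chains, rose slightly with the inhibitor, by 0.12 with knockout cells (adjusted p = 0.00898) and 0.17 with wild-type cells (adjusted p = 0.00115). Cpt1b stayed between 0 and 0.163 FPKM in all libraries, and 91.1% of its 100-base windows are shared with the gene model Gm44502, so its value is uncertain.

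**Figure D2:**
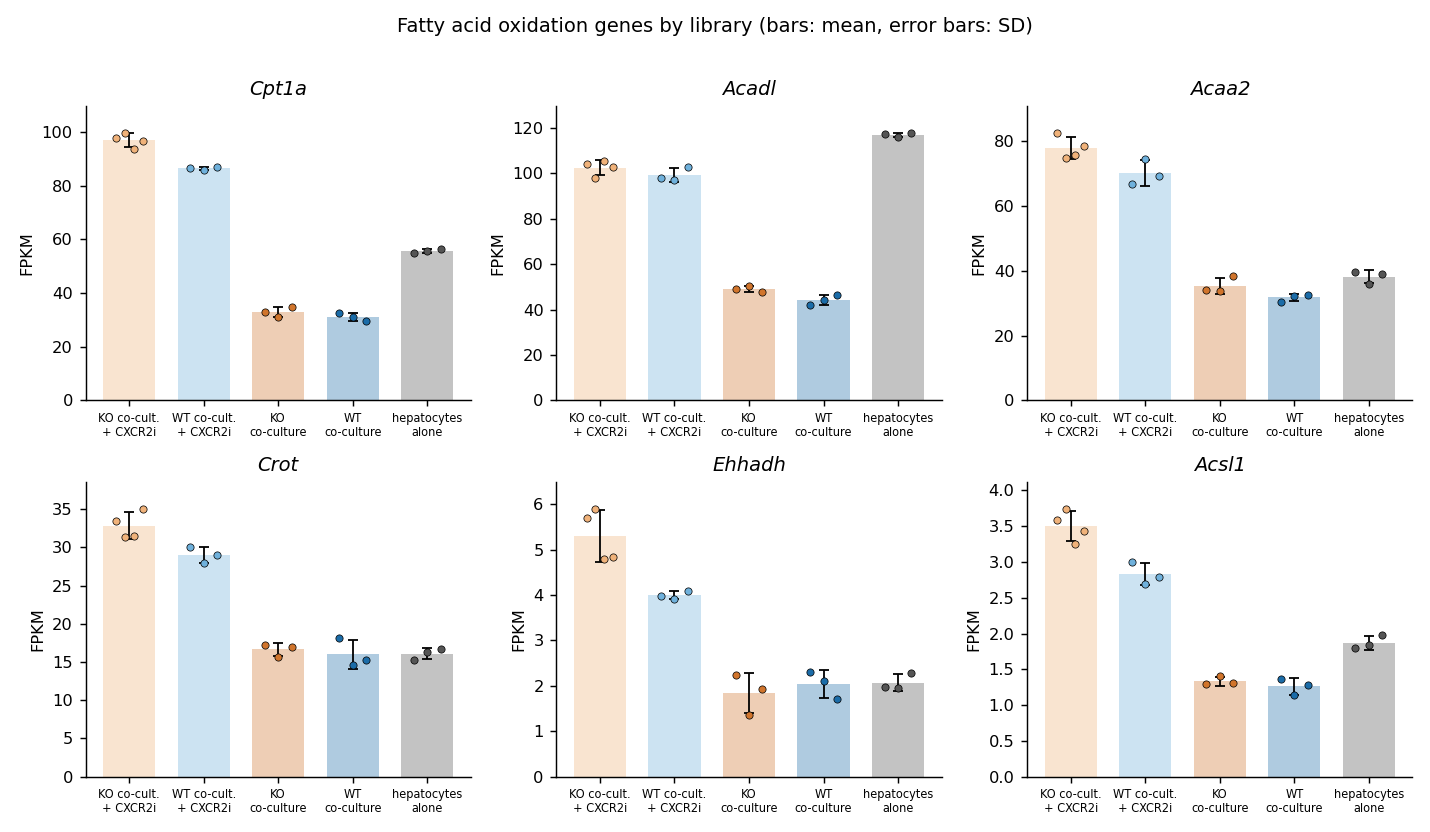
FPKM per library for Cpt1a, Acadl, Acaa2, Crot, Ehhadh and Acsl1 in the 5 groups (points, libraries; bars, group means; error bars, SD; n = 4 for knockout co-culture with inhibitor and 3 elsewhere). Every library with the inhibitor lies above every library of the co-cultures without it in all 6 panels, while hepatocytes alone lie highest for Acadl only.

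Acyl-CoA dehydrogenases open each turn of the spiral, and in both co-cultures 6 of 8 rose and 1 fell with the inhibitor. The shares of all genes tested were 34.8% higher and 34.7% lower with knockout cells, and 33.5% and 33% with wild-type cells. Acadl (ENSMUSG00000026003, chromosome 1, 66830839 to 66863277), the long-chain enzyme, had 104, 97.9, 105 and 103 FPKM with knockout cells and the inhibitor, and 97.7, 96.99 and 103 FPKM with wild-type cells and the inhibitor. Acadl had 48.99, 50.2 and 47.5 FPKM with knockout cells, 42.2, 44.1 and 46.3 FPKM with wild-type cells, and 117, 116 and 118 FPKM in hepatocytes alone. Hepatocytes alone stood highest, the inhibitor groups next and the co-cultures without it lowest, with no overlap between these 3 levels. Acadl rose by 1.05 ± 0.04 (adjusted p = 4.77e-12) with knockout cells and by 1.15 ± 0.04 (adjusted p = 4.84e-12) with wild-type cells. Acads (ENSMUSG00000029545, chromosome 5, 115110299 to 115119346), the short-chain enzyme, went the other way. Acads had 28.00, 28.6, 24.8 and 28.5 FPKM with knockout cells and the inhibitor, and 28.00, 26.7 and 29.4 FPKM with wild-type cells and the inhibitor. Acads had 35.7, 35.9 and 40.1 FPKM with knockout cells, 38.1, 38.1 and 36.1 FPKM with wild-type cells, and 40.5, 37.04 and 34.3 FPKM in hepatocytes alone. Every library with the inhibitor lay below every library without it, and the fall was -0.42 ± 0.06 with knockout cells (adjusted p = 3.33e-05) and -0.40 ± 0.07 with wild-type cells (adjusted p = 1.07e-04).

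Among the other dehydrogenases, the medium-chain Acadm averaged 24.2 ± 0.810 FPKM with knockout cells and inhibitor and 22.6 ± 0.935 FPKM with wild-type cells and inhibitor, against 17.8 ± 0.511 FPKM with knockout cells and 17.7 ± 1.31 FPKM with wild-type cells. Its log2 fold changes were 0.42 with knockout cells (adjusted p = 5.73e-06) and 0.34 with wild-type cells (adjusted p = 1.10e-04). Acadsb, a branched-chain enzyme of isoleucine breakdown, rose by 0.51 with knockout cells (adjusted p = 9.94e-07) and 0.29 with wild-type cells (adjusted p = 5.06e-04), and its gene overlaps Fgfr2, read at 14.5 FPKM on the other strand, which itself rose by 1.57 with knockout and 1.72 with wild-type cells. The very-long-chain Acadvl (ENSMUSG00000018574, chromosome 11, 70010183 to 70015411) had 19.98, 20.8, 19.2 and 17.8 FPKM with knockout cells and the inhibitor, and 17.5, 19.2 and 18.8 FPKM with wild-type cells and the inhibitor. Acadvl had 14.9, 17.5 and 16.8 FPKM with knockout cells, 16.2, 16.7 and 14.9 FPKM with wild-type cells, and 23.4, 20.8 and 23.8 FPKM in hepatocytes alone. For each genotype the libraries with the inhibitor lay above those without it, and hepatocytes alone were highest, level at their lowest with the highest inhibitor library. The increases of Acadvl were 0.23 with knockout cells (adjusted p = 0.00702) and 0.20 with wild-type cells (adjusted p = 0.0237). The call with knockout cells was lost without knockout co-culture replicate 1 (adjusted p = 0.0501). The call with wild-type cells was lost without wild-type co-culture replicate 3 (0.103) or inhibitor replicate 2 (0.0775) or 3 (0.0645).

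Acad11, which acts on very long chains, had 5.91, 5.67, 5.44 and 6.02 FPKM with knockout cells and the inhibitor, and 4.97, 4.26 and 4.92 FPKM with wild-type cells and the inhibitor. Acad11 had 3.97, 3.94 and 4.10 FPKM with knockout cells, 4.46, 3.96 and 3.55 FPKM with wild-type cells, and 3.18, 2.85 and 3.02 FPKM in hepatocytes alone. Hepatocytes alone were lowest, below every co-culture library, and the knockout libraries with inhibitor were highest. Acad11 rose with the inhibitor by 0.43 (adjusted p = 2.88e-05) with knockout cells. With wild-type cells its 0.20 (adjusted p = 0.0194) did not hold without wild-type co-culture replicate 3 (0.107), without inhibitor replicate 1 (0.0780) or 3 (0.0707), after quantile normalization (0.239), or in a fit of those groups alone (0.0992). Acad9, known best as an assembly factor of respiratory complex I, rose by 0.17 with knockout and 0.20 with wild-type cells (adjusted p = 0.00936 and 0.00538), losing both calls after quantile normalization (0.247 and 0.0766) and the first without knockout co-culture replicate 1 (0.0643). Acad10 had 3.89, 3.55, 3.44 and 3.66 FPKM with knockout cells and the inhibitor, and 3.13, 3.24 and 3.32 FPKM with wild-type cells and the inhibitor. Acad10 had 3.27, 3.71 and 2.84 FPKM with knockout cells, 2.78, 3.36 and 3.18 FPKM with wild-type cells, and 2.31, 2.45 and 2.47 FPKM in hepatocytes alone. Its libraries with and without inhibitor overlapped, and neither inhibitor comparison passed (adjusted p = 0.126 and 0.598).

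From hydratase to thiolase, 4 of 5 mitochondrial genes rose and Echs1 fell in both inhibitor comparisons. All genes tested stood there at 34.8% higher and 34.7% lower (knockout), and at 33.5% and 33% (wild type). Acaa2 (ENSMUSG00000036880, chromosome 18, 74779197 to 74806207), the thiolase that releases acetyl-CoA, had 82.6, 74.98, 75.6 and 78.7 FPKM with knockout cells and the inhibitor, and 66.8, 74.6 and 69.3 FPKM with wild-type cells and the inhibitor. Acaa2 had 34.1, 33.8 and 38.3 FPKM with knockout cells, 30.5, 32.3 and 32.5 FPKM with wild-type cells, and 39.7, 35.95 and 39.02 FPKM in hepatocytes alone. Every library with the inhibitor lay above every library without it, hepatocytes alone included. Acaa2 rose by 1.12 ± 0.05 (adjusted p = 1.58e-10) with knockout cells and by 1.12 ± 0.06 (adjusted p = 3.90e-10) with wild-type cells. Echs1 (ENSMUSG00000025465, chromosome 7, 140105710 to 140116476), the short-chain hydratase, had 23.2, 23.8, 23.6 and 23.7 FPKM with knockout cells and the inhibitor, and 22.6, 23.2 and 22.2 FPKM with wild-type cells and the inhibitor. Echs1 had 27.3, 28.98 and 28.2 FPKM with knockout cells, 26.96, 27.4 and 27.01 FPKM with wild-type cells, and 21.8, 20.4 and 19.9 FPKM in hepatocytes alone. Its levels were highest in the co-cultures without inhibitor and lowest in hepatocytes alone, with no overlap between co-culture with and without inhibitor. Its log2 fold changes were -0.25 ± 0.03 with knockout cells (adjusted p = 1.53e-05) and -0.25 ± 0.04 with wild-type cells (adjusted p = 2.99e-05).

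Hadh, the short-chain hydroxyacyl-CoA dehydrogenase, rose by 0.47 ± 0.04 with knockout cells (adjusted p = 1.49e-07) and 0.41 ± 0.04 with wild-type cells (adjusted p = 1.53e-06). Hadha and Hadhb encode the alpha and beta subunits of the trifunctional protein, which carries long chains through the last 3 steps, and lie head to head on chromosome 5. Hadha averaged 18.1 ± 0.584 FPKM with knockout cells and inhibitor and 16.3 ± 0.457 FPKM with wild-type cells and inhibitor, against 13.9 ± 0.101 FPKM with knockout cells and 12.95 ± 0.318 FPKM with wild-type cells, and rose by 0.36 with knockout cells (adjusted p = 4.99e-07) and 0.31 with wild-type cells (adjusted p = 5.32e-06). Hadhb averaged 11.9 ± 0.528 FPKM with knockout cells and inhibitor and 10.6 ± 0.360 FPKM with wild-type cells and inhibitor, against 9.63 ± 0.275 FPKM with knockout cells and 9.22 ± 0.637 FPKM with wild-type cells. It changed by 0.27 with knockout cells (adjusted p = 2.74e-04) and 0.18 with wild-type cells (adjusted p = 0.00913), the second lost without wild-type co-culture replicate 3 (0.0535). Hadhb shares 52.8% of its 100-base windows with the pseudogene Gm13910, which was itself read at 17.1 FPKM on average, so how reads were split between them leaves the level of Hadhb uncertain.

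Oxidation of unsaturated chains needs isomerases and reductases. Eci2, an enoyl-CoA isomerase, averaged 25.7 ± 0.940 FPKM with knockout cells and inhibitor and 24.1 ± 0.437 FPKM with wild-type cells and inhibitor, against 16.3 ± 0.153 FPKM with knockout cells and 16.2 ± 0.191 FPKM with wild-type cells and 20.6 ± 0.472 FPKM in hepatocytes alone. It rose by 0.62 ± 0.03 with knockout cells (adjusted p = 3.51e-10) and 0.55 ± 0.04 with wild-type cells (adjusted p = 3.79e-09). Eci1, the mitochondrial isomerase, was 51.3 ± 4.57 FPKM with and 42.7 ± 5.29 FPKM without inhibitor in wild-type co-culture (0.26, adjusted p = 0.00827, 0.0693 in a fit of those groups alone), and did not pass with knockout cells (adjusted p = 0.162). The peroxisomal reductase Decr2 (ENSMUSG00000036775, chromosome 17, 26081211 to 26090329) had 12.1, 12.1, 12.1 and 11.9 FPKM with knockout cells and the inhibitor, and 11.6, 11.97 and 11.01 FPKM with wild-type cells and the inhibitor. Decr2 had 10.49, 10.50 and 10.8 FPKM with knockout cells, 11.8, 11.2 and 10.1 FPKM with wild-type cells, and 9.39, 8.05 and 8.38 FPKM in hepatocytes alone. Hepatocytes alone lay below all co-culture libraries, and Decr2 rose with the inhibitor with knockout cells (0.17, adjusted p = 0.0115) but did not pass with wild-type cells (0.06, adjusted p = 0.376). Decr1, the mitochondrial reductase, passed neither test, at 12.1 FPKM with knockout cells and inhibitor, 11.6 with wild-type cells and inhibitor, 11.4 with knockout cells, 10.9 with wild-type cells and 11.9 FPKM in hepatocytes alone.

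Electrons from the dehydrogenases pass through the electron transfer flavoprotein (Etfa and Etfb) and its ubiquinone oxidoreductase (Etfdh). Etfa averaged 56.2 ± 2.99 FPKM with knockout cells and inhibitor and 52.7 ± 1.17 FPKM with wild-type cells and inhibitor, against 41.6 ± 0.481 FPKM with knockout cells and 38.6 ± 1.25 FPKM with wild-type cells and 53.8 ± 1.96 FPKM in hepatocytes alone. Etfa rose by 0.42 ± 0.04 with knockout cells (adjusted p = 4.17e-07) and 0.44 ± 0.04 with wild-type cells (adjusted p = 6.17e-07), and Etfdh by 0.36 ± 0.05 with knockout cells (adjusted p = 3.63e-05) and 0.34 ± 0.06 with wild-type cells (adjusted p = 1.14e-04). Etfb was scattered, with 4.96, 12.6 and 9.96 FPKM in the 3 wild-type co-culture libraries, and passed neither inhibitor comparison (adjusted p = 0.166 and 0.12). For Etfb, 65.2% of windows are shared with the gene model Gm45233, read at 0.0038 FPKM.

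Ehhadh encodes the bifunctional hydratase and dehydrogenase of the peroxisomal spiral. Ehhadh (ENSMUSG00000022853, chromosome 16, 21761287 to 21787807) had 5.69, 5.90, 4.79 and 4.85 FPKM with knockout cells and the inhibitor, and 3.99, 3.91 and 4.09 FPKM with wild-type cells and the inhibitor. Ehhadh had 2.23, 1.37 and 1.93 FPKM with knockout cells, 2.31, 2.11 and 1.71 FPKM with wild-type cells, and 1.98, 1.96 and 2.28 FPKM in hepatocytes alone. Every library with the inhibitor lay above all others, and the other 3 groups overlapped. Ehhadh rose by 1.16 ± 0.10 (adjusted p = 1.21e-07) with knockout cells and by 0.72 ± 0.11 (adjusted p = 3.91e-05) with wild-type cells. The difference between both effects was 0.44 ± 0.15 and did not pass (adjusted p = 0.259). Abcd3, the peroxisomal membrane transporter of fatty acyl-CoA, rose with knockout cells by 0.34 (adjusted p = 3.68e-04). With wild-type cells its 0.21 (adjusted p = 0.016) was lost without wild-type co-culture replicate 2 (0.0738) or 3 (0.0777), without inhibitor replicate 1 (0.0603) or 3 (0.0530), and in a fit of those groups alone (0.0848). Acox3, an oxidase of branched chains, passed with wild-type cells (0.22, adjusted p = 0.00972, 0.247 after quantile normalization) and not with knockout cells (0.14, adjusted p = 0.0688).

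**Figure D3:**
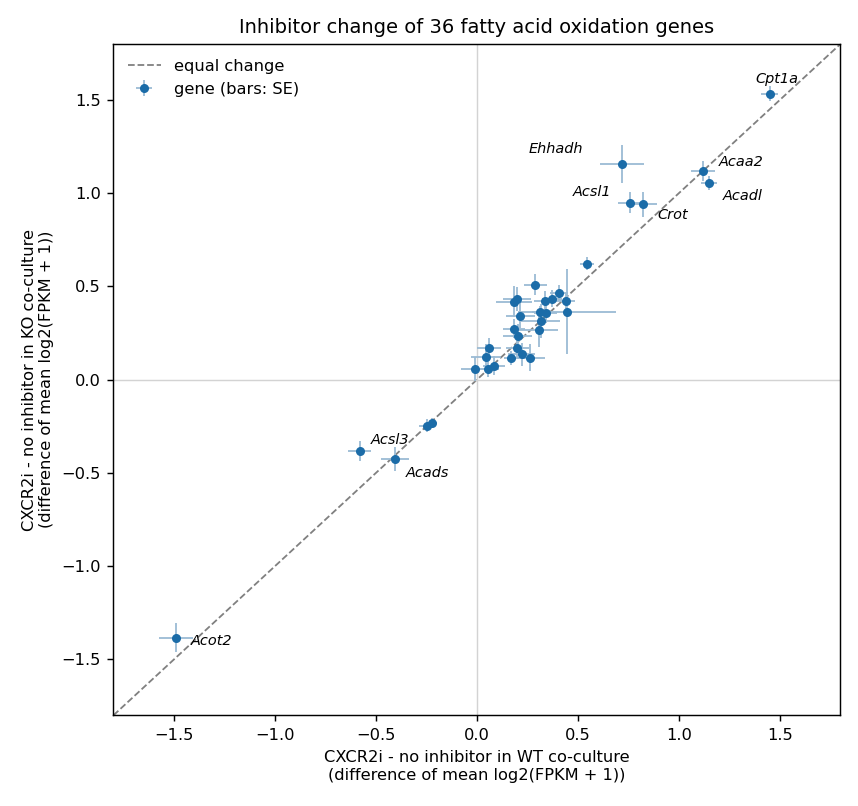
Inhibitor log2 fold change of each of the 36 tested genes in the knockout co-culture (vertical axis) against that in the wild-type co-culture (horizontal axis), both as differences of mean log2(FPKM + 1), with bars for the SE and a dashed line of equal change. Cpt1a (1.53 with knockout, 1.45 with wild-type cells) and Acot2 (-1.38 and -1.49) mark the ends, and Ehhadh (1.16 and 0.72) lies farthest above the line.

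Co-culture without the inhibitor, set against hepatocytes alone, gave a mixed picture. Acadl, Cpt1a, Acot1 and Acaa1b fell, and Acot2 rose more than any other of the genes. In the knockout co-culture 8 of 36 genes rose and 15 fell, beside 30.3% and 31.2% of all genes tested (61.5% either way). In the wild-type co-culture 6 rose and 17 fell, beside 30.1% and 31.9% of all genes (62% either way). The median of the 36 log2 fold changes was -0.09 in both, against 0.01 over all genes. Both comparisons use the same 3 libraries of hepatocytes alone, so their values stand side by side and are not independent.

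Acadl, by the values above, fell to 48.9 ± 1.33 FPKM with knockout cells and 44.2 ± 2.04 FPKM with wild-type cells, against 117 ± 0.929 FPKM in hepatocytes alone. Its log2 fold changes were -1.24 ± 0.04 with knockout cells (adjusted p = 2.07e-12) and -1.38 ± 0.04 with wild-type cells (adjusted p = 6.37e-13). Acadvl changed by -0.45 with knockout cells (adjusted p = 9.10e-05) and -0.48 with wild-type cells (adjusted p = 4.25e-05), Etfa by -0.36 with knockout cells (adjusted p = 5.96e-06) and -0.47 with wild-type cells (adjusted p = 3.54e-07), and Etfdh by -0.23 with knockout cells (adjusted p = 0.00288) and -0.32 with wild-type cells (adjusted p = 2.50e-04). Of the 8 dehydrogenases 3 fell (Acadl, Acadvl and Acadm), 2 rose and 3 did not pass in each co-culture, and of the 3 electron carriers Etfa and Etfdh fell. Of all genes tested, 31.2% fell and 30.3% rose with knockout cells, and 31.9% and 30.1% with wild-type cells. The dehydrogenase counts were near those shares. Etfb did not pass (0.18 with knockout and 0.01 with wild-type cells, adjusted p = 0.534 and 0.964). Lower in co-culture were also Eci2 (-0.32 with knockout and -0.32 with wild-type cells, adjusted p = 2.07e-06 and 1.47e-06) and Abcd3 (-0.35 with knockout and -0.32 with wild-type cells, adjusted p = 6.58e-04 and 0.00121). The dehydrogenases that did not pass were Acads, Acadsb and Acad9. Acaa2 passed with wild-type cells (-0.26, adjusted p = 0.00148) and not with knockout cells (-0.11, adjusted p = 0.126).

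Besides Acot2, the largest rises in co-culture were Echs1 (0.43 ± 0.04, adjusted p = 1.14e-07, with knockout cells and 0.38 ± 0.04, adjusted p = 4.78e-07, with wild-type cells), Decr2 (0.27 with knockout and 0.32 with wild-type cells), Acad11 (0.32 with knockout and 0.31 with wild-type cells) and Acad10 (0.32 with knockout and 0.27 with wild-type cells). The adjusted p-values were 8.64e-04 and 2.07e-04 for Decr2, 0.00101 and 0.00122 for Acad11, and 0.00156 and 0.00564 for Acad10. By the library values above, no co-culture library of these 4 genes overlapped hepatocytes alone. Acad10 shares 10.4% of its windows with Acad12, a neighbouring dehydrogenase gene read at 1.20 FPKM. The calls for Acadm (-0.15 with knockout and -0.16 with wild-type cells, adjusted p = 0.0305 and 0.0229) were not firm. With knockout cells the call was lost without knockout co-culture replicate 1 (0.0610) or 3 (0.0965) or monoculture replicate 1 (0.0889) or 2 (0.125), and with wild-type cells without wild-type co-culture replicate 1 (0.101) or monoculture replicate 1 (0.0711) or 2 (0.0995). Quantile normalization (0.145 and 0.155) and voom (0.101 and 0.0914) also ended both Acadm calls.

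Further small changes against hepatocytes alone in the knockout co-culture rested on single libraries. Acsl5, at 0.08 (adjusted p = 0.0183), was lost without monoculture replicate 1 (0.0555), and Hadh, at -0.15 (adjusted p = 0.00964), without knockout co-culture replicate 1 (0.0529). Eci1, at 0.20 (adjusted p = 0.034), was lost without knockout co-culture replicate 2 (0.119) or 3 (0.0597) or monoculture replicate 1 (0.0669) or 2 (0.101). Acox3, at 0.19 (adjusted p = 0.0232), was lost without knockout co-culture replicate 2 (0.104) or 3 (0.0628) or monoculture replicate 1 (0.101) or 3 (0.0708). Acsl4, at -0.24 in the wild-type co-culture (adjusted p = 0.0076), did not pass once mitochondrial and the 50 most abundant genes were left out of the scaling (0.0922) or after quantile normalization (0.260).

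The thioesterases Acot1 and Acot2 split acyl-CoA back into fatty acid and coenzyme A, Acot1 in the cytosol and Acot2 in mitochondria, and lie next to each other on chromosome 12. The inhibitor moved their levels in opposite directions. Acot2 (ENSMUSG00000021226, chromosome 12, 83987861 to 83993873) had 8.64, 9.12, 8.94 and 9.27 FPKM with knockout cells and the inhibitor, and 6.81, 8.25 and 8.41 FPKM with wild-type cells and the inhibitor. Acot2 had 24.03, 23.01 and 28.5 FPKM with knockout cells, 23.8, 23.6 and 23.7 FPKM with wild-type cells, and 4.16, 3.31 and 3.58 FPKM in hepatocytes alone. The 3 levels did not overlap, with co-culture without inhibitor highest, co-culture with it in between and hepatocytes alone lowest. Acot2 changed with the inhibitor by -1.38 ± 0.08 with knockout cells (adjusted p = 9.01e-10) and by -1.49 ± 0.08 with wild-type cells (adjusted p = 9.61e-10), and against hepatocytes alone it rose by 2.48 ± 0.08 with knockout cells (adjusted p = 3.46e-12) and 2.40 ± 0.08 with wild-type cells (adjusted p = 4.75e-12) without the inhibitor.

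Acot1 (ENSMUSG00000072949, chromosome 12, 84009490 to 84018371) had 24.2, 25.3, 23.97 and 22.7 FPKM with knockout cells and the inhibitor, and 18.3, 18.7 and 18.7 FPKM with wild-type cells and the inhibitor. Acot1 had 17.4, 18.3 and 16.9 FPKM with knockout cells, 14.02, 14.5 and 13.9 FPKM with wild-type cells, and 27.1, 24.7 and 27.96 FPKM in hepatocytes alone. Hepatocytes alone and the knockout co-culture with inhibitor overlapped at the top, and the wild-type co-culture without inhibitor was lowest, apart from all other groups. Acot1 rose with the inhibitor by 0.43 ± 0.05 with knockout cells (adjusted p = 7.99e-07) and 0.37 ± 0.05 with wild-type cells (adjusted p = 9.34e-06), and against hepatocytes alone it changed by -0.57 ± 0.05 with knockout cells (adjusted p = 1.00e-07) and -0.87 ± 0.05 with wild-type cells (adjusted p = 9.03e-10) without it. Acot1 shares 21.9% of its 100-base windows with 5 other genes and Acot2 shares 17.1% with Acot1, so part of the reads of each could have been split between them. Acot8, the peroxisomal thioesterase, averaged 8.61 ± 0.590 FPKM with knockout cells and inhibitor and 8.61 ± 0.159 FPKM with wild-type cells and inhibitor, against 6.73 ± 0.775 FPKM with knockout cells and 6.76 ± 0.940 FPKM with wild-type cells, and rose by 0.32 with knockout cells (adjusted p = 0.00686) and 0.32 with wild-type cells (adjusted p = 0.0108).

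Acaa1a and Acaa1b, the peroxisomal thiolases of mouse, also differed from each other. Acaa1a had 38.4, 38.2, 39.7 and 38.6 FPKM with knockout cells and the inhibitor, and 36.7, 39.3 and 38.6 FPKM with wild-type cells and the inhibitor. Acaa1a had 34.3, 38.9 and 38.3 FPKM with knockout cells, 34.7, 38.7 and 36.7 FPKM with wild-type cells, and 37.7, 35.1 and 36.1 FPKM in hepatocytes alone. The co-cultures overlapped each other, and the knockout libraries with inhibitor lay just above hepatocytes alone. As log2(FPKM + 1) none of the 9 comparisons of Acaa1a passed in limma, with log2 fold changes of 0.06 with knockout and 0.06 with wild-type cells for the inhibitor and 0.03 with knockout and 0.01 with wild-type cells against hepatocytes alone. Other settings gave Acaa1a calls with inhibitor against hepatocytes alone, for knockout cells at an adjusted p of 0.00110 (scaling without mitochondrial and the 50 most abundant genes), 0.00178 (quantile normalization), 0.00376 (voom) and 0.0415 (those groups alone), and for wild-type cells at 0.00401, 0.00620 and 0.0166 under the first 3 of these. The first scaling also gave a call for the inhibitor with knockout cells (0.11, adjusted p = 0.0349). Acaa1b (ENSMUSG00000010651, chromosome 9, 119148023 to 119157093) had 6.24, 6.25, 5.59 and 6.14 FPKM with knockout cells and the inhibitor, and 4.17, 4.63 and 4.79 FPKM with wild-type cells and the inhibitor. Acaa1b had 4.22, 5.17 and 5.28 FPKM with knockout cells, 3.39, 3.84 and 3.21 FPKM with wild-type cells, and 14.3, 11.7 and 10.8 FPKM in hepatocytes alone. Hepatocytes alone lay far above all co-cultures, and among these the wild-type co-culture without inhibitor was lowest.

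Acaa1b changed by -1.17 ± 0.09 in the knockout co-culture (adjusted p = 6.00e-08) and by -1.56 ± 0.09 in the wild-type co-culture (adjusted p = 2.20e-09), both against hepatocytes alone. With the inhibitor it changed by 0.27 ± 0.09 with knockout cells (adjusted p = 0.0153) and 0.31 ± 0.09 with wild-type cells (adjusted p = 0.0107), calls that quantile normalization ended (0.0834 and 0.0705). Without knockout co-culture replicate 1 the first was also lost (0.0983). Acaa1a and Acaa1b share 21.6% and 22.6% of their windows with each other.

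**Figure D4:**
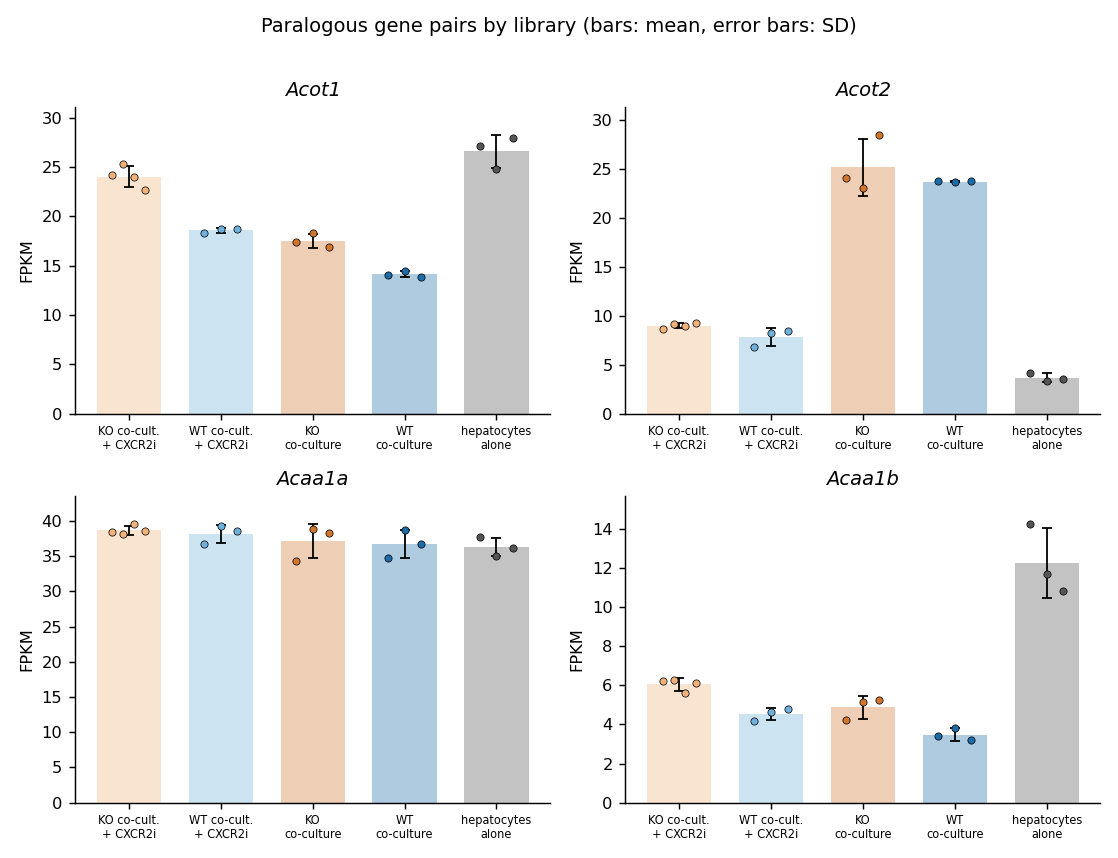
FPKM per library of the paired genes Acot1 and Acot2, and Acaa1a and Acaa1b, in the 5 groups (points, libraries; bars, means; error bars, SD). Acot2 is highest in the co-cultures without inhibitor, at 23.0 to 28.5 FPKM, where Acot1 is at 13.9 to 18.3 FPKM, and Acaa1a stays between 34.3 and 39.7 FPKM while Acaa1b is highest in hepatocytes alone.

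Few of these genes passed the test between knockout and wild-type cancer cells. Without the inhibitor 2 of 36 rose in the knockout co-culture and 0 fell, beside 1.65% and 1.34% of all genes tested (2.99% either way). Acot1 was 17.5 ± 0.702 FPKM in the knockout and 14.1 ± 0.315 FPKM in the wild-type co-culture (0.29 ± 0.05, adjusted p = 0.00474). Acaa1b was 4.89 ± 0.582 FPKM in the knockout and 3.48 ± 0.327 FPKM in the wild-type co-culture (0.39 ± 0.09, adjusted p = 0.0407). In both genes every knockout library lay above every wild-type library. At an unadjusted p under 0.05 there were 8 of 36 genes, beside 14.2% of all genes tested. The Acot1 call was lost in a fit of those groups alone (adjusted p = 0.167). The Acaa1b call was lost without filter (0.101), with voom (0.112), in a fit of those groups alone (0.271), and without wild-type replicate 1 (0.0810) or 3 (0.144) or knockout replicate 2 (0.142) or 3 (0.153).

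With the inhibitor in both, 2 of 36 genes rose in the knockout co-culture and 0 fell, beside 1.66% and 0.649% of all genes (2.31% either way), with 16 of 36 at an unadjusted p under 0.05, beside 12.3% of all genes. Acot1 rose by 0.35 ± 0.05 (adjusted p = 8.59e-04), with 24.02 ± 1.05 FPKM with knockout and 18.6 ± 0.212 FPKM with wild-type cells. Acsl1 was 3.50 ± 0.210 FPKM with knockout and 2.83 ± 0.151 FPKM with wild-type cells, a difference of 0.23 ± 0.06 (adjusted p = 0.0494) that was lost whichever of the 7 libraries was left out. Without wild-type replicates 1, 2 and 3 in turn the adjusted p of Acsl1 was 0.0777, 0.179 and 0.169, and without knockout replicates 1 to 4 it was 0.132, 0.152, 0.0524 and 0.0852. The inhibitor effects of knockout and wild-type co-culture differed past the threshold for 0 of the 36 genes by limma and for 0 by voom, beside 0.816% of all genes. At an unadjusted p under 0.05 there were 5 of 36 genes, beside 10.9% of all genes, and Ehhadh had the largest difference.

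Co-cultures with the inhibitor were also set against hepatocytes alone, which differ from them in both cancer cells and inhibitor. In the knockout co-culture 21 genes rose and 7 fell, beside 33.3% and 36.1% of all genes (69.4% either way). In the wild-type co-culture 20 rose and 9 fell, beside 32.1% and 34.7% (66.8% either way). The share of higher genes among those called was 75.0% with knockout and 69.0% with wild-type cells. It became 86.2% with knockout and 78.6% with wild-type cells when mitochondrial and the 50 most abundant genes were left out of the scaling, and 88.0% and 80.0% after quantile normalization. Acot2 (1.097 with knockout and 0.91 with wild-type cells), Ehhadh (1.03 with knockout and 0.70 with wild-type cells), Acaa2 (1.01 with knockout and 0.86 with wild-type cells), Crot (0.98 with knockout and 0.81 with wild-type cells) and Cpt1a (0.79 with knockout and 0.63 with wild-type cells) rose most. Their adjusted p-values ranged from 2.68e-10 for Cpt1a with knockout cells to 4.93e-05 for Ehhadh with wild-type cells. Acaa1b (-0.91 with knockout and -1.26 with wild-type cells, adjusted p = 3.81e-07 and 2.59e-08) and Acsl3 (-0.59 with knockout and -0.65 with wild-type cells, adjusted p = 2.01e-07 and 1.67e-07) fell most in both. Acads was lower too (-0.43 with knockout and -0.40 with wild-type cells, adjusted p = 3.20e-05 and 1.29e-04). Acadl, at -0.19 with knockout and -0.24 with wild-type cells (adjusted p = 4.51e-04 and 1.20e-04), passed no longer after quantile normalization (0.825 and 0.224). Both comparisons again share the libraries of hepatocytes alone.

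Bdh1, the mitochondrial enzyme that interconverts both main ketone bodies, had 1.28, 1.09, 1.30 and 0.650 FPKM with knockout cells and the inhibitor, and 0.863, 0.841 and 0.933 FPKM with wild-type cells and the inhibitor. Bdh1 had 0.215, 0.122 and 0.242 FPKM with knockout cells, 0.1597, 0.203 and 0.0982 FPKM with wild-type cells, and 0.783, 0.467 and 0.591 FPKM in hepatocytes alone. Without the filter on low values it rose with the inhibitor by 0.79 (adjusted p = 3.73e-05) with knockout cells and by 0.70 (adjusted p = 0.000211) with wild-type cells. In that fit Bdh1 changed by -0.43 (adjusted p = 0.00966) in the knockout and by -0.48 (adjusted p = 0.00471) in the wild-type co-culture without inhibitor, against hepatocytes alone. The same fit gave Cpt1b no call for the inhibitor (log2 fold change 0.06 with knockout and 0.02 with wild-type cells, adjusted p = 0.343 and 0.842). Against hepatocytes alone Cpt1b passed there with wild-type cells, at 0.15 with the inhibitor (adjusted p = 0.0133) and 0.13 without it (adjusted p = 0.0327), and not with knockout cells, at 0.11 with the inhibitor (adjusted p = 0.0510) and 0.05 without it (adjusted p = 0.475).

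Genes around the pathway were read from lists chosen for their roles, some of which share genes (Cd36, for example). The filter of 1 FPKM was set on the mean over all libraries. Genes low without the inhibitor could thus be tested through the inhibitor groups alone, for example Pdk4 and Cd36 below. List counts with the inhibitor carry that limit. Of all genes tested, 34.8% rose and 34.7% fell with the inhibitor with knockout cells, and 33.5% and 33% with wild-type cells. Among 15 tested regulators of the PPAR-alpha axis, 5 rose and 5 fell with it in each co-culture, near those shares. In co-culture without it, 6 (knockout) and 7 (wild type) rose and 0 fell against hepatocytes alone. All genes tested stood there at 30.3% higher and 31.2% lower (knockout), and at 30.1% and 31.9% (wild type). Ppara, which encodes PPAR-alpha, was 6.73 ± 0.610 FPKM with knockout cells and inhibitor and 6.07 ± 0.147 FPKM with wild-type cells and inhibitor, against 1.28 ± 0.177 FPKM with knockout cells and 1.495 ± 0.191 FPKM with wild-type cells and 1.04 ± 0.309 FPKM in hepatocytes alone. Ppara rose by 1.76 ± 0.09 with knockout cells (adjusted p = 4.19e-10) and 1.51 ± 0.10 with wild-type cells (adjusted p = 6.13e-09). Creb3l3, a liver transcription factor of fasting, rose by 1.88 ± 0.11 with knockout cells (adjusted p = 1.13e-09) and 1.43 ± 0.12 with wild-type cells (adjusted p = 6.39e-08). It averaged 3.79 FPKM with knockout cells and inhibitor and 3.04 FPKM with wild-type cells and inhibitor, against 0.301 FPKM with knockout cells and 0.499 FPKM with wild-type cells. Both co-culture means of Creb3l3 without inhibitor were thus under 1 FPKM, the level of the filter. Its rise was in part set by the filter. Pparg, the receptor of fat cells (-0.89 ± 0.10 with knockout and -1.02 ± 0.11 with wild-type cells), and Nrip1, a corepressor (-0.95 ± 0.05 with knockout and -0.85 ± 0.06 with wild-type cells), fell, with adjusted p-values of 1.64e-06 and 8.78e-07 for Pparg and 5.20e-10 and 4.56e-09 for Nrip1.

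Of 18 tested PPAR-alpha targets outside the 38 genes, 13 rose and 3 fell with the inhibitor in the knockout co-culture (median log2 fold change 0.55). In the wild-type co-culture 11 rose and 4 fell (median 0.53). The shares of all genes tested were 34.8% higher and 34.7% lower with knockout cells, and 33.5% and 33% with wild-type cells. Against hepatocytes alone, 5 rose and 9 fell in either co-culture without it, beside 30.3% and 31.2% of all genes (knockout) and 30.1% and 31.9% (wild type). The list was not uniform. Mlycd fell with the inhibitor (-0.42 with knockout and -0.24 with wild-type cells, adjusted p = 1.61e-04 and 0.0160). That second call was lost without wild-type co-culture replicate 2 (0.0530) or 3 (0.0544), or without inhibitor replicate 3 (0.0716). In co-culture without inhibitor Mlycd rose (0.56 with knockout and 0.34 with wild-type cells, adjusted p = 2.58e-05 and 0.00184). Pdk4, a kinase that turns off pyruvate oxidation, was 8.75 FPKM with knockout cells and inhibitor and 6.96 FPKM with wild-type cells and inhibitor, against 0.177 FPKM with knockout cells and 0.117 FPKM with wild-type cells and 0.916 FPKM in hepatocytes alone. On the log2(FPKM + 1) scale, which understates changes of low genes, Pdk4 rose by 3.05 ± 0.08 with knockout cells (adjusted p = 2.76e-13) and 2.83 ± 0.09 with wild-type cells (adjusted p = 1.56e-12). Pdk4 passed the filter on low values only through the inhibitor groups, so this rise was in part set by the filter. Ucp2, a mitochondrial carrier, rose by 2.41 with knockout cells (adjusted p = 6.74e-13) and 2.23 with wild-type cells (adjusted p = 4.11e-12) and fell against hepatocytes alone in co-culture without it (-1.42 with knockout and -1.33 with wild-type cells, adjusted p = 6.27e-10 and 1.37e-09).

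In the list of uptake, binding and lipolysis, 8 of 12 tested genes rose and 2 fell with the inhibitor in the knockout co-culture. In the wild-type co-culture 9 rose and 1 fell. The shares of all genes tested were 34.8% higher and 34.7% lower with knockout cells, and 33.5% and 33% with wild-type cells. Cd36, a fatty acid transporter, was 3.41 to 4.09 FPKM with knockout cells and inhibitor and 1.94 to 2.69 with wild-type cells and inhibitor, against 0.0264 to 0.0463 FPKM with knockout cells and 0 to 0.0147 FPKM with wild-type cells, and was listed at 0 in hepatocytes alone. It rose by 2.19 ± 0.08 with knockout cells (adjusted p = 5.58e-12) and 1.73 ± 0.08 with wild-type cells (adjusted p = 1.88e-10). Cd36 passed the filter on low values only through the inhibitor groups. Its rise and its place in the counts were thus in part set by the filter. Fabp1, the fatty acid binding protein of liver, was more scattered, at 2.72 to 5.98 FPKM with knockout cells and inhibitor and 0.937 to 3.87 FPKM with wild-type cells and inhibitor, against 0.0891 to 0.514 FPKM with knockout cells and 0 to 0.225 FPKM with wild-type cells (2.14 ± 0.26 with knockout cells, adjusted p = 4.17e-06, and 1.41 ± 0.28 with wild-type cells, adjusted p = 4.55e-04). All co-culture libraries of Fabp1 without inhibitor were thus also under 1 FPKM, the level of the filter. The hormone-sensitive lipase gene Lipe rose by 1.101 with knockout cells (adjusted p = 8.83e-09) and 0.90 with wild-type cells (adjusted p = 2.04e-07). Against hepatocytes alone, Fabp5 (-2.17 with knockout and -2.004 with wild-type cells, adjusted p = 2.29e-10 and 5.73e-10) and the acyl-CoA binding protein gene Dbi (-1.71 with knockout and -2.04 with wild-type cells, adjusted p = 5.53e-06 and 8.22e-07) fell in co-culture without inhibitor.

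Ketone body genes beside Bdh1 numbered 6 tested, of which 5 (knockout) and 4 (wild type) rose and 0 fell with the inhibitor. All genes tested stood at 34.8% higher and 34.7% lower (knockout), and at 33.5% and 33% (wild type). Oxct1, which lets cells use ketone bodies, was 21.2 ± 0.933 FPKM with knockout cells and inhibitor and 21.3 ± 1.61 FPKM with wild-type cells and inhibitor, against 12.02 ± 0.254 FPKM with knockout cells and 11.04 ± 0.782 FPKM with wild-type cells, and rose by 0.77 ± 0.06 with knockout cells (adjusted p = 1.99e-08) and 0.89 ± 0.06 with wild-type cells (adjusted p = 9.93e-09). The mitochondrial thiolase gene Acat1 rose by 0.44 with knockout cells (adjusted p = 1.35e-07) and 0.39 with wild-type cells (adjusted p = 9.79e-07). Of 4 tested carnitine supply genes, 1 rose and 1 fell with knockout cells and 1 rose and 2 fell with wild-type cells. Tmlhe, the first enzyme of carnitine synthesis, was 1.33 to 1.47 FPKM with knockout cells and inhibitor and 1.003 to 1.44 FPKM with wild-type cells and inhibitor, against 10.6 to 11.98 FPKM with knockout cells and 9.12 to 11.7 FPKM with wild-type cells, a fall of -2.34 ± 0.08 with knockout cells (adjusted p = 2.95e-12) and -2.33 ± 0.09 with wild-type cells (adjusted p = 7.42e-12).

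Other peroxisomal enzymes (15 tested) counted 8 higher and 3 lower with the inhibitor in the knockout co-culture and 7 higher and 3 lower in the wild-type co-culture. The shares of all genes tested were 34.8% and 34.7% with knockout cells, and 33.5% and 33% with wild-type cells. Acox2, the oxidase of bile acid intermediates and branched chains, was 23.3 to 24.8 FPKM with knockout cells and inhibitor and 18.8 to 21.04 FPKM with wild-type cells and inhibitor, against 136 to 148 with knockout cells, 98.99 to 115 with wild-type cells and 10.9 to 11.2 FPKM in hepatocytes alone. Acox2 fell with the inhibitor (-2.52 ± 0.05 with knockout cells, adjusted p = 1.62e-14, and -2.38 ± 0.06 with wild-type cells, adjusted p = 6.85e-14). Phyh, which starts the breakdown of phytanic acid, rose by 1.44 ± 0.06 with knockout cells (adjusted p = 2.26e-11) and 1.46 ± 0.06 with wild-type cells (adjusted p = 4.96e-11). Between genotypes without inhibitor, 3 of these 15 rose in the knockout co-culture, beside 1.65% of all genes tested. Among them were catalase Cat (167 FPKM with knockout against 136 FPKM with wild-type cells, 0.29 ± 0.03, adjusted p = 2.20e-04) and Acox2 (142 against 109 FPKM, 0.38 ± 0.06, adjusted p = 0.00231). In a fit of those groups alone both missed the threshold (adjusted p = 0.129 for Cat and 0.191 for Acox2).

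**Figure D5:**
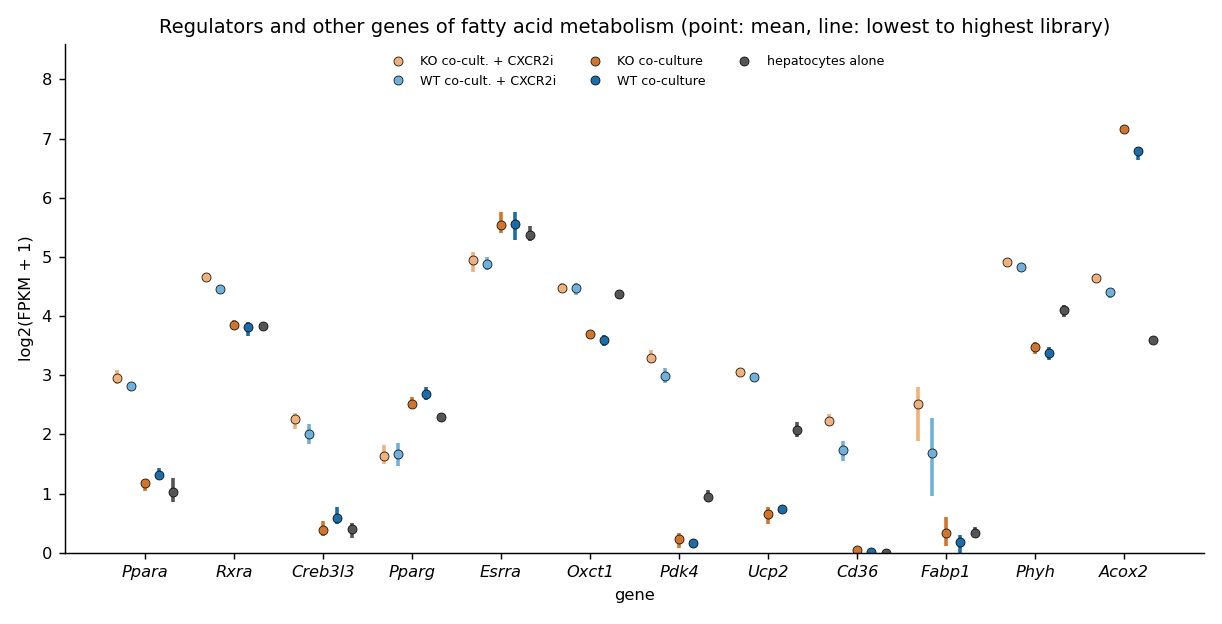
Level as log2(FPKM + 1) of 12 genes around the pathway, including Ppara, Oxct1, Pdk4, Cd36, Phyh and Acox2, in the 5 groups (points, group means; lines, lowest to highest library). Ppara, Pdk4 and Cd36 are highest with the inhibitor, and Acox2 is highest in the co-cultures without it, at 99.0 to 148 FPKM.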

How the data were processed

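Per the labels' protocols, RNA was taken with an RNeasy kit and libraries followed Novogene procedures. Alignment used HISAT2 and GRCm38 (mm10), per the submitters' processing notes. For the counting tool, annotation and strand setting, nothing is given in the sources used here. Values deposited by the authors are FPKM for 54532 genes in 16 libraries, per the file headers, with gene lengths in the same table. FPKM times length gave whole fragments for 100% of values (within 0.1), 15.0 to 21.3 M per library, so that 1 fragment in a gene of 1 kb is 0.0457 to 0.0648 FPKM. This covers counting error only.

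From these, log2(FPKM + 1) of the 11395 genes averaging at least 1 FPKM was fitted with limma 3.58.1 in R 4.3.3, as a mean per group over all libraries (11 residual degrees of freedom) with an intensity trend, and checked on simulated data. Tests were two-sided, adjusted by Benjamini-Hochberg over all genes tested, threshold 0.05, in 9 comparisons. A fold change is a difference on that log2 scale. Alternatives were log2(FPKM + 0.1), no filter, scaling without mitochondrial and the 50 most abundant genes, quantile normalization, voom on recovered fragments, only the groups compared, a replicate block, and leaving out each library. Named with every library's value were Cpt1a and, per comparison, up to 5 higher and 5 lower genes with the largest changes whose groups did not overlap; Acaa1a, paired with Acaa1b, and the untested Bdh1 were added after their values were seen; of other lists, up to 4 genes with the largest changes, of which some are not reported here. Members and lists were chosen with earlier results of these data known. Gene positions come from the deposited table, of which 34 of 38 are the same in GENCODE M21. Windows of 100 bases were compared between GENCODE M21 transcripts to find shared sequence.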

Additional observations from a re-analysis of the deposited data

Results flagged for a closer look

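Co-culture of knockout cells plus inhibitor is the one group of 4 libraries. In it 6 of 94 genes examined had a library apart from the other 3 by Dixon's gap ratio at the 95% level, where chance gives about 1 in 20. Acads stood at 24.8 FPKM in replicate 3 (28.0 to 28.6 FPKM in the others), Hadhb at 11.1 FPKM in replicate 3 (12.1 to 12.2), and the methylmalonyl-CoA mutase gene Mut at 27.7 FPKM in replicate 3 (28.7 to 28.9). Acot7 stood at 28.2 FPKM in replicate 1 (32.2 to 33.0), Dbi at 29.7 FPKM in replicate 4 (44.3 to 45.3), and Pex13 at 5.67 FPKM in replicate 2 (6.22 to 6.27).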

How the results depend on the processing

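For the 36 genes and the untested pair over 9 comparisons, 4407 of 4572 values under other settings kept their direction and side of the threshold, 113 lost a call, 50 gained one and 2 changed sign. Of 1743 values for the other named genes 1700 kept both and 43 lost a call. The sign changes were Acsl5 after quantile normalization, in co-culture with inhibitor against hepatocytes alone, at 0.00863 with knockout cells (adjusted p = 0.826) and 0.0311 with wild-type cells (adjusted p = 0.446), against -0.15 and -0.13 before. The 2 genes called between knockout and wild-type co-culture became 1 without the filter, 1 with voom, 1 with the replicate block and 0 in a fit of those groups alone, and 1 to 2 when single libraries were left out. With the inhibitor in both, 2 became 1 as log2(FPKM + 0.1), 1 without the filter, 1 after leaving mitochondrial and the 50 most abundant genes out of the scaling, 1 with the replicate block, 3 after quantile normalization, 3 in a fit of those groups alone, 5 with voom, and 1 in every fit without one library. The cause was not tested. Counts without one library ran from 26 to 31 (inhibitor, knockout cells), 25 to 30 (inhibitor, wild-type cells), 20 to 23 and 23 to 24 (knockout and wild-type co-culture against hepatocytes alone), and 24 to 28 and 27 to 29 for the same with inhibitor. The interaction stayed at 0 throughout. Same-numbered libraries of different groups did not deviate together (r from -0.300 to 0.270, median 0.0104, 30 pairs), so the replicate block is no pairing, and apart from the counts above it left 29 and 29 genes for the inhibitor in knockout and wild-type co-culture, and 23 and 23 for co-culture against hepatocytes alone. Depth limits the lowest genes, with 0 to 12 fragments for Cpt1b and 8 to 110 for Bdh1.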

Other observations

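Peroxisome biogenesis genes (Pex genes, whose products build the organelle) were counted on their own. Of 16 tested, 9 rose and 1 fell in the knockout co-culture without inhibitor against hepatocytes alone (median log2 fold change 0.27), beside 30.3% and 31.2% of all genes. In the wild-type co-culture 10 rose and 1 fell (median 0.31), beside 30.1% and 31.9% of all genes. Pex6, an ATPase of protein import, was 13.9 ± 0.984 FPKM with knockout cells, 14.8 ± 1.15 FPKM with wild-type cells and 8.48 ± 0.482 FPKM in hepatocytes alone (0.66 ± 0.07 with knockout cells, adjusted p = 8.89e-07, and 0.74 ± 0.07 with wild-type cells, adjusted p = 2.40e-07). With the inhibitor 6 rose and 7 fell with knockout cells, and 5 rose and 6 fell with wild-type cells. Those counts were near the shares of all genes, 34.8% and 34.7% with knockout cells and 33.5% and 33% with wild-type cells. Pex3, needed to form peroxisomal membranes, rose in co-culture (0.69 with knockout and 0.71 with wild-type cells, adjusted p = 1.15e-04 and 8.60e-05) and fell with the inhibitor (-0.68 with knockout and -0.71 with wild-type cells, adjusted p = 5.95e-05 and 7.45e-05).

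Among 8 tested genes of malonyl-CoA and AMPK control, 4 rose and 2 fell with the inhibitor in the knockout co-culture, and 4 rose and 1 fell in the wild-type co-culture. For this list and the next, the shares of all genes were 34.8% higher and 34.7% lower with knockout cells. With wild-type cells they were 33.5% and 33%. The AMPK subunit genes Prkab1 (0.73 with knockout and 0.48 with wild-type cells, adjusted p = 5.75e-08 and 1.25e-05) and Prkab2 (0.62 with knockout and 0.52 with wild-type cells, adjusted p = 2.67e-06 and 3.38e-05) rose. Of 20 other mitochondrial acyl-CoA enzymes, 7 rose and 4 fell with knockout cells and 6 rose and 4 fell with wild-type cells, the higher counts being near those shares. Ivd, of leucine breakdown, rose by 0.82 ± 0.05 with knockout cells (adjusted p = 8.94e-10) and 0.65 ± 0.05 with wild-type cells (adjusted p = 3.38e-08), and the thioesterase gene Acot7 by 1.26 ± 0.09 with knockout cells (adjusted p = 6.28e-09) and 1.08 ± 0.09 with wild-type cells (adjusted p = 8.75e-08). Acot7 was 31.4 FPKM with knockout cells and inhibitor and 31.4 FPKM with wild-type cells and inhibitor, against 12.6 FPKM with knockout cells and 14.3 FPKM with wild-type cells and 34.3 FPKM in hepatocytes alone.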
